A study of Homo sapiens with 9 samples.

Results

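SR proteins, the kinases that phosphorylate them and the heterogeneous nuclear ribonucleoproteins (hnRNPs) were followed in 9 RNA-seq libraries of HEK293T cells, a human embryonic kidney line that expresses the SV40 large T antigen. The set holds 48 genes chosen by symbol from the families' names, and all 48 matched 1 gene ID each among the 60683 in the count tables. Of these, 12 encode SR proteins, 4 SR-related factors, 6 SR protein kinases and 26 hnRNPs or close relatives. All 48 are protein-coding in GENCODE 29 and lie on 18 chromosomes. The rule uses symbols alone and no measured value.

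The study asked how gene expression differed between parental HEK293T cells and clones carrying a CAG repeat reporter. Parental cells, clone 37 and clone 15 had 3 libraries each. Both clones were grown from single cells after piggyBac transposition had put a pair of constructs into their genome. These were ATG-(CAG)60-Myc-NLuc, in which 60 CAG units stand ahead of a Myc tag and NanoLuc luciferase, and ATG-(CAG)0-Myc-FLuc, with 0 CAG units ahead of firefly luciferase. The labels give high expression of both integrands to clone 37 and low expression to clone 15. Parental cells carried neither construct, and no clone with the repeat-free construct alone was analysed here. Each expression level is 1 clone, so integrand level and other differences between clones cannot be told apart. Reads were 75 bp long in parental and clone 37 libraries but 100 bp in those of clone 15, so clone 15 and read length cannot be told apart either. The labels do not say whether replicates were separate cultures, so p-values measure the spread between these libraries, which may be technical.

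SR proteins bind exonic enhancers through RNA recognition motifs and recruit the spliceosome through a domain rich in arginine and serine. SRPK kinases phosphorylate that domain and send the proteins into the nucleus, where CLK kinases phosphorylate it further and release them from nuclear speckles. The hnRNPs coat nascent transcripts, often oppose SR proteins at splice site choice, and also act in transport, stability and translation of mRNA. Many genes of both families control their own level through poison exons, whose inclusion sends the transcript to nonsense-mediated decay.

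Gene counts summed to between 10334090 and 13902872 per parental or clone 37 library and to between 18654063 and 38093340 per clone 15 library. The share of read pairs that mapped to several places was 11.9% to 14.0% in parental, 10.4% to 11.7% in clone 37 and 4.59% to 5.98% in clone 15. Parental replicate 2 stood apart from the other parental libraries: 19.2% of its pairs fell outside annotated exons, against 26.4% and 28.8%. That share was 25.7% to 29.9% in clone 37 and 33.7% to 34.6% in clone 15, above every other library, and its part in the clone 15 results was not tested. All 6 markers of this line were detected in every library. In CPM (gene counts scaled to a common library total), VIM averaged 554, 541 and 545 in parental, clone 37 and clone 15, while CDH2 averaged 129, 68.2 and 113 and the neurofilament gene NEFM 569, 137 and 2717. KRT8, KRT18 and PAX2 ranged from 7.14 to 74.6 CPM over all libraries. Of other lineages' markers, the blood genes PTPRC and CD3E had at most 1 count and 0 counts in any library. The fibroblast collagen COL1A1 averaged 34.9, 19.4 and 72.5 CPM in the same order, with at least 199 counts in every library. COL1A2, another, had 0 counts in parental and clone 37 libraries and averaged 24.8 CPM in clone 15, where its highest library had 56.9 CPM. DCN, the remaining fibroblast marker, reached 1.24 CPM at most. All 3 neuronal markers were detected in every library: RBFOX3 averaged 3.80 CPM in parental, 8.38 in clone 37 and 1.64 in clone 15, GAD1 11.1, 9.39 and 8.08 and SLC17A7 3.57, 2.75 and 2.66. The part of NEFM, CDH2, RBFOX3 and the collagens in the results below was not tested.

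Every one of the 48 genes was expressed in every library, with between 242 counts (SRSF12) and 65666 counts (HNRNPU). Together they summed to 17805 ± 369.9 CPM in parental cells, 18227 ± 331 in clone 37 and 17315 ± 363 across clone 15 libraries (n = 3, SD). The hnRNPs took most of this, 12443 ± 549 CPM in parental, 12385 ± 293 in clone 37 and 12348 ± 204 in clone 15. The SR proteins, related factors and kinases took 5362 ± 179, 5842 ± 38.2 and 4968 ± 164 CPM in the same order, and these groups did not overlap. Of this, SRRM2 alone averaged 1571, 2049 and 1385 CPM. The SR proteins alone summed to 2494 ± 18.8, 2440 ± 53.5 and 2370 ± 84.8 CPM, so they did not share the clone 37 rise. The kinases alone summed to 691 ± 13.5, 703 ± 20.1 and 597 ± 15.0 CPM. The SR-related factors summed to 2177 ± 174, 2699 ± 36.0 and 2001 ± 87.6 CPM, most of it SRRM2.

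Per kb of annotated exon, a scale that allows in part for gene length, HNRNPA1 stood highest at 263 CPM per kb in parental cells, 270.3 in clone 37 and 284 in clone 15. It was followed in parental cells by HNRNPAB, HNRNPK, HNRNPA2B1 and SRRM2. HNRNPAB and HNRNPK lay within their spread of each other there, at 170.4 ± 20.3 and 169 ± 19.1 CPM per kb (SD, n = 3). In clone 37 HNRNPAB stood at 259.8 ± 5.4 and HNRNPK at 158 ± 6.88 CPM per kb, which do not overlap. The lowest parental levels per kb were those of CLK3 at 2.79 ± 0.321, SRSF12 at 4.60 ± 0.422, CLK4 at 4.74 ± 0.986 and PTBP2 at 5.85 ± 0.601. The union of annotated exons overstates the length of the transcripts used, so these levels are lower limits. It does so unequally, so ranks between genes depend on the annotation. The union and the longest transcript were 20443 and 10498 bases for CLK3, 5114 and 2942 for HNRNPK and 2144 and 1796 for HNRNPAB.

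**Figure D1:**
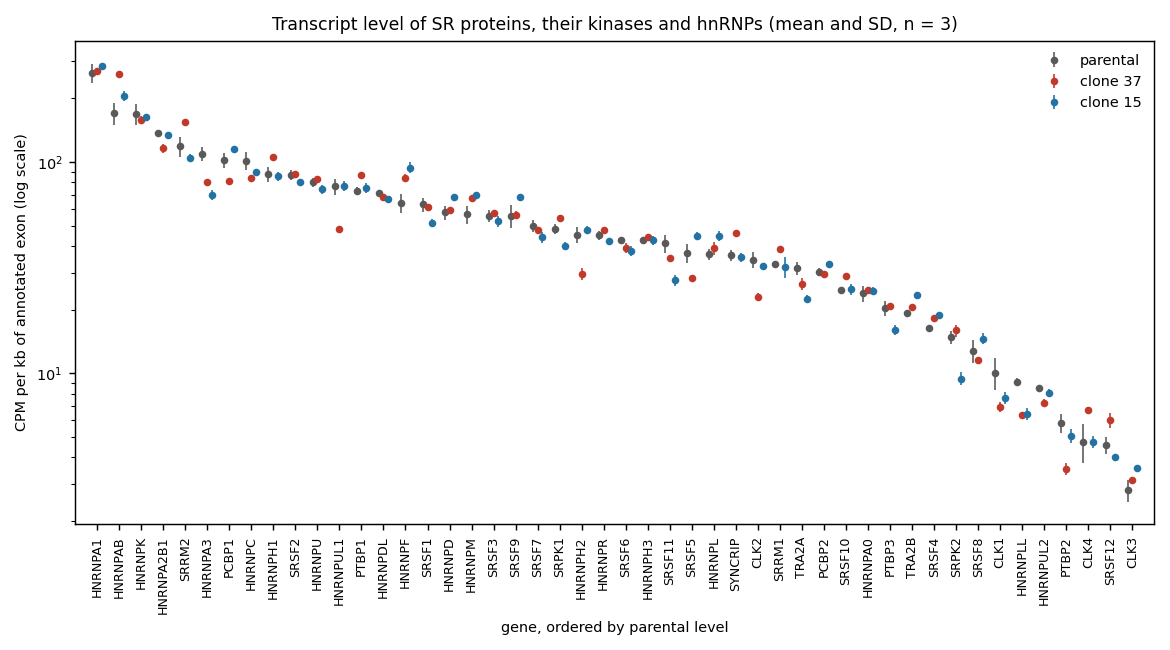
Mean level of the 48 genes in CPM per kb of annotated exon (log scale, bars are SD, n = 3), ordered by the parental level, in parental (grey), clone 37 (red) and clone 15 (blue) libraries. HNRNPA1 is highest in all 3 groups and CLK3 lowest in all 3. Clone 37 stands below the other groups for HNRNPUL1, HNRNPH2 and PTBP2, and clone 15 does so for SRPK2.

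In clone 37 against parental cells, 27 of the 48 genes were called at an adjusted p under 0.05 (edgeR's quasi-likelihood test with Benjamini-Hochberg adjustment over 16501 genes, the source of every adjusted p given here). Of these, 13 were higher and 14 lower. Among all genes tested 54.0% were called, 26.7% higher and 27.3% lower, so the 56.3% called among the splicing regulators is close to the background. The largest differences were a log2 fold change of 0.61 for HNRNPAB and -0.73 for PTBP2. None of the 48 changed by 2-fold or more, where 9.0% of all genes were called with such a change. The median absolute log2 fold change was 0.22 over the 48 genes and 0.32 over all genes. After removal of trends with GC content and length within libraries, the split was 18 higher and 12 lower. That was 62.5% of the 48, against 54.2% of all genes.

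In clone 15 against the same parental libraries, 19 of the 48 genes were called, 10 higher and 9 lower. The background over 17703 genes was 51.4%, with 25.1% higher, 26.2% lower and 10.1% called with a change of at least 2-fold. The share among the 48 genes was 39.6%, and its distance from the background was not tested. It was 58.3% against 48.0% of all genes without parental replicate 2, and 50% against 50.1% with GC and length trends removed. Again no gene of the set was called with a 2-fold change. Fold changes ran from -0.65 for SRPK2 and HNRNPA3 to 0.55 for HNRNPF on the log2 scale. The median absolute log2 fold change was 0.18, against 0.36 over all genes. The split moved to 16 higher and 8 lower with GC and length trends removed, and to 8 and 11 when each gene was tested against its 100 nearest tested neighbours along the chromosome. With counts of both strands together it was 5 and 12, 35.4% of the 48 against 45.3% of all genes.

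Between the clones, 35 of the 48 passed the test: clone 37 was higher for 20 and lower for 15. Over 17712 genes 57.7% were called, 28.7% higher and 29.0% lower. A 2-fold or larger difference was called for 11.9% of all genes and for none of the 48. The largest differences were 0.76 for SRPK2 and -0.69 for HNRNPH2 (log2 fold change, clone 37 over clone 15). The median absolute difference was 0.20 over the set and 0.35 over all genes. Removing GC and length trends turned the split to 13 higher and 22 lower, 72.9% of the 48 against 58.3% of all genes. Every clone 15 library had longer reads, so read length cannot be told apart from the clones here.

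The parental libraries decided part of these counts. Without parental replicate 2, the library that stood apart, clone 37 had 17 genes higher and 16 lower, and clone 15 had 14 and 14. These were 68.8% and 58.3% of the 48, against 59.4% and 48.0% of all genes. Without parental replicate 1 or 3, clone 15 had 5 genes higher, with 10 and 9 lower. That was 31.3% and 29.2% of the 48, against 42.7% and 44.9% of all genes. Without clone 37 replicate 3, clone 37 had 7 genes higher and 14 lower, 43.8% of the 48 against 44.6% of all genes. Both clones were compared with the same parental libraries, so values for the 2 clones below are given side by side and are not independent.

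**Figure D2:**
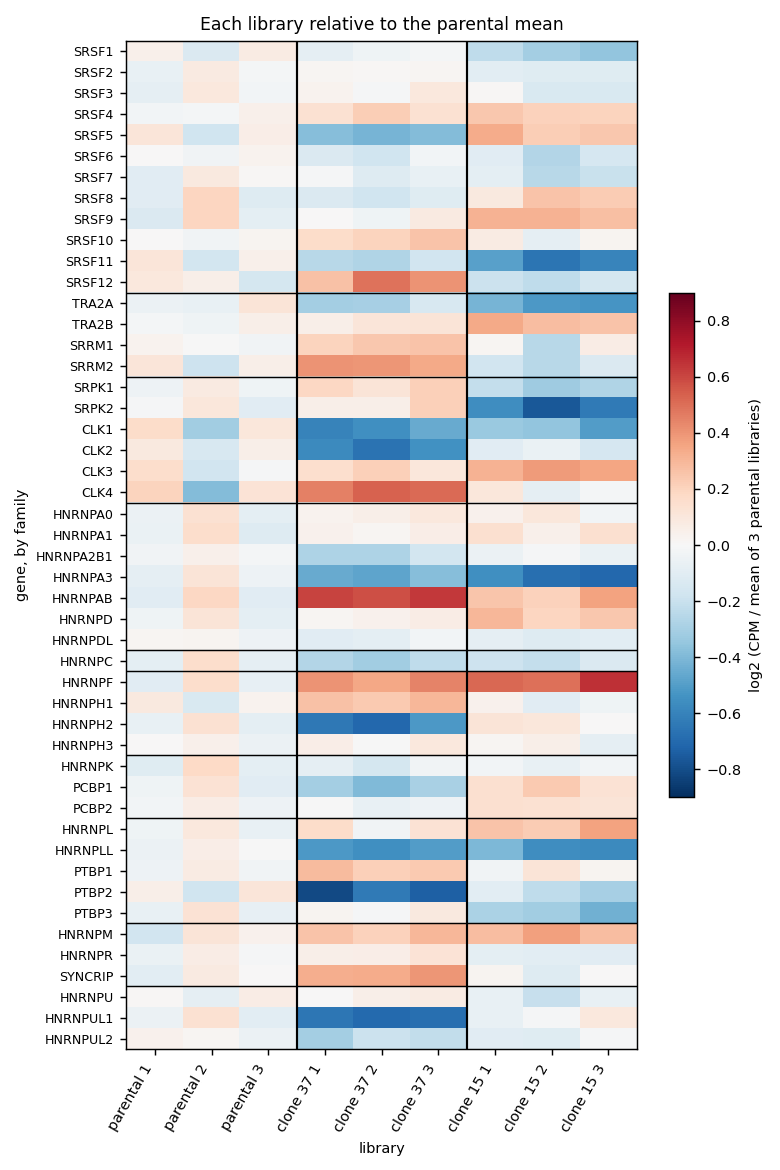
Log2 ratio of each library's CPM to the mean of the 3 parental libraries, for all 48 genes by family (rows) and 9 libraries (columns), with red above and blue below the parental mean. Within the parental columns replicate 2 differs from the others in CLK1, CLK4, SRSF5, SRSF11 and SRRM2 (blue) and in several hnRNPs (pale red).

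**Figure D3:**
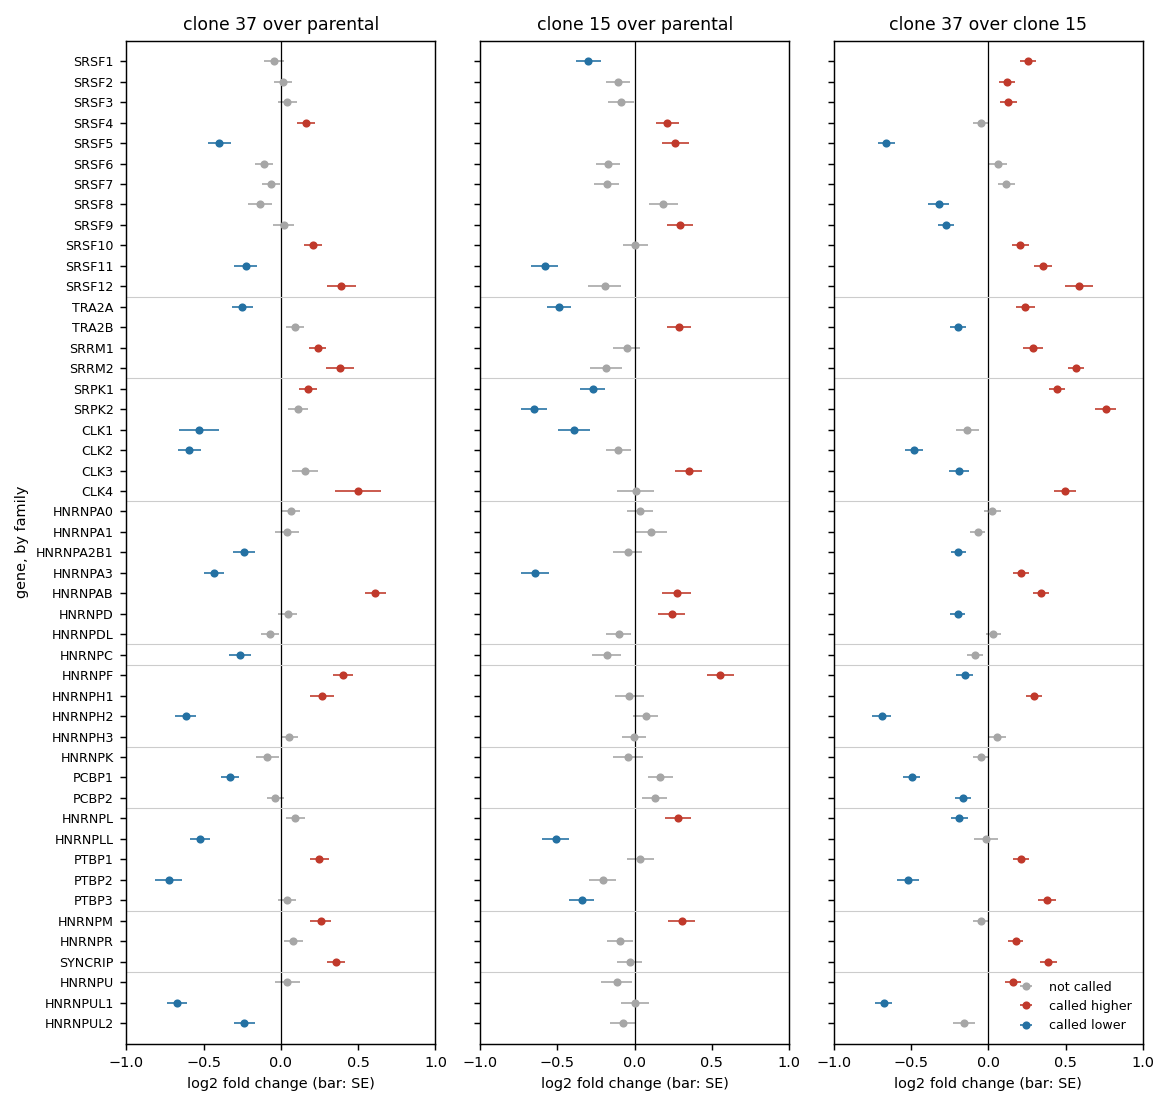
Log2 fold change (point) and SE (bar) of each of the 48 genes, grouped by family with thin lines between families, for clone 37 over parental, clone 15 over parental and clone 37 over clone 15. Red points were called higher and blue points lower at an adjusted p under 0.05; no point reaches 1 in either direction.

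Sequences upstream of the start of 4 genes are shown because their clone 37 calls held under every alternative tried, with PTBP2 and CLK2 lower and HNRNPAB and SYNCRIP higher; they were chosen after their values were seen, among such genes with 1 listed start site. Each sequence is the stretch upstream of the RefSeq start on GRCh38.p14, up to 250 bases, that holds no GENCODE 29 exon, read 5′ to 3′ along the gene. The stretches of PTBP2 and CLK2 lie inside the GENCODE 29 spans of these genes given below, downstream of the outermost annotated start, so another annotated start lies upstream of each; those of HNRNPAB and SYNCRIP lie outside their genes' spans. Capitals mark matches on either strand to GGGCGG, known as the GC box, to the CCAAT box named for its letters, and to the E-box form CACGTG.
PTBP2, chr1:96722388-96722637, plus strand: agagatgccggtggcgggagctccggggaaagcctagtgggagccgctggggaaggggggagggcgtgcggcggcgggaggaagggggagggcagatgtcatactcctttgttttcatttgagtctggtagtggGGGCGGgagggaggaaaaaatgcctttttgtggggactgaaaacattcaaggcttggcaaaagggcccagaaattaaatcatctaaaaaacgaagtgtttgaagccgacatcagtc
CLK2, chr1:155273517-155273754, minus strand: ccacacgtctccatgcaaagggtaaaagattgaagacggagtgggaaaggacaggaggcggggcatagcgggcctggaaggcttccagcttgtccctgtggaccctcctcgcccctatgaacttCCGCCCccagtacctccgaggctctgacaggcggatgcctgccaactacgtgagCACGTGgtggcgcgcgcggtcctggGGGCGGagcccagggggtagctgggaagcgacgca
HNRNPAB, chr5:178204283-178204506, plus strand: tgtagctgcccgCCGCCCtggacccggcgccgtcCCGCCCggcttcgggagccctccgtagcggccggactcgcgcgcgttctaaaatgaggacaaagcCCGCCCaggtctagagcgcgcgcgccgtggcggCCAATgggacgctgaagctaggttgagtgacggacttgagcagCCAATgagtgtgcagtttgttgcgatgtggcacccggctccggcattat
SYNCRIP, chr6:85643871-85644120, minus strand: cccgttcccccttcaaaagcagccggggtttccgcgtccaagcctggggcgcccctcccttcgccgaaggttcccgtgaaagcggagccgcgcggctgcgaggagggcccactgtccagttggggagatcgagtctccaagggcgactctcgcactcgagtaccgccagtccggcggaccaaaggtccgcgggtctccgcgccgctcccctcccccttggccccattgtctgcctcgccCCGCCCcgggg
Distances count to the RefSeq start. The printed CLK2 and HNRNPAB stretches, 238 and 224 bases long, stop short of it, where an exon of GENCODE 29 is reached. PTBP2 held 1 GC box, 116 bases before its start, and SYNCRIP held 1, 11 bases before. For both PTBP2 and SYNCRIP, the bases checked just after the RefSeq start matched no GENCODE 29 transcript of the gene. CLK2 held GC boxes 126 and 47 bases and an E-box 72 bases before its start. HNRNPAB held CCAAT boxes at 118 and 75 bases and GC boxes at 238, 216 and 151 bases. The RefSeq table gave a window for 45 of the 48 genes, of which the first listed was searched over its 250 upstream bases, beside 35116 windows of all genes. GGGCGG was found in 68.9% of the 45 and 42.6% of all windows, CCAAT in 40% and 32.0%, CACGTG in 17.8% and 6.35%, and the ETS core CCGGAAG in 15.6% and 8.52%. No window of the 45 held TGACGTCA (the cAMP response element, 1.65% of all windows) or TGATGNAAT (a CHOP-ATF4 type element, 0.889%). A match is a description of the letters and not a bound site.

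Counts by family below are descriptions with no test, to be read against the shares of all genes called: 54.0% for clone 37 and 51.4% for clone 15, each against parental cells. Among the 12 SR proteins, clone 37 had 3 called higher and 2 lower, and clone 15 also 3 higher and 2 lower. SRSF5 (chr14:69726900-69772005), an SR protein whose transcript is induced by insulin, stood at 214, 175 and 207 CPM in parental replicates 1 to 3, 152, 148 and 151 in clone 37 and 251, 231 and 234 in clone 15. Clone 37 libraries lay below, and clone 15 libraries above, every parental library. The log2 fold change was -0.40 (adjusted p = 0.000296, SE 0.075) in clone 37 and 0.26 (adjusted p = 0.0117, SE 0.085) in clone 15, and clone 37 stood -0.66 (adjusted p = 3.21e-11, SE 0.054) from clone 15. The genes around SRSF5 had a median of -0.37 in clone 37 and 0.13 in clone 15, and neither call against parental held against those neighbours. The clone 15 call was also lost with unstranded counts (0.21).

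SRSF11 (chr1:70205682-70253052), an SR protein that contacts the U2 auxiliary factor, stood at 376, 312 and 359.5 CPM in parental replicates 1 to 3, 294, 289 and 310.1 in clone 37 and 249, 221 and 231 in clone 15. The 3 groups did not overlap and ran from parental down through clone 37 to clone 15. It fell by 0.58 on the log2 scale in clone 15 (SE 0.087, adjusted p = 4.50e-06) and by 0.23 in clone 37 (SE 0.075, adjusted p = 0.0151). The clone 37 call was lost if replicate 1 or 2 of clone 37 or replicate 1 of the parental cells was left out, with values of -0.22, -0.21 and -0.17. Against its neighbours neither SRSF11 call held, with -0.19 in clone 15 and 0.054 in clone 37, and the clone 37 call was also lost with GC and length trends removed (-0.17), a setting in which clone 15 stood at -0.27. Parental replicate 2 held the lowest parental value of both SRSF5 and SRSF11.

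SRSF12 (chr6:89095959-89118081), a repressor that counteracts other SR proteins, was the least abundant of the 12 by counts. It stood at 22.3, 21.7 and 18.7 CPM in parental replicates 1 to 3, 25.1, 29.3 and 27.6 in clone 37 and 18.3, 17.8 and 18.7 in clone 15, and every clone 37 library lay above every other library. Its log2 fold change was 0.39 (adjusted p = 0.0021, SE 0.095) in clone 37, -0.20 (adjusted p = 0.14, SE 0.11) in clone 15 and 0.58 (adjusted p = 2.62e-06, SE 0.090) between the clones. SRSF10, a splicing repressor when dephosphorylated, was called higher in clone 37 at 0.21, and stood at 0.0030 in clone 15 without a call. Its clone 37 call was lost without clone 37 replicate 3 (0.16), with unstranded counts (0.17) and against its neighbours (-0.069).

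SRSF3, the smallest SR protein and an adaptor for mRNA export, was the most abundant of the 12 by CPM, at 375, 424 and 389.8 CPM in parental replicates 1 to 3, 405, 394 and 423 in clone 37 and 399, 361 and 361 in clone 15. It was called in neither clone, with 95% intervals of -0.079 to 0.16 in clone 37 and -0.26 to 0.080 in clone 15. SRSF1, the founding member of the family, was called lower in clone 15 at -0.30 and not called in clone 37 at -0.045. With GC and length trends removed the clone 15 value was -0.13 and no longer called. Of the gene's 75-base words, 57.4% lie in AC015813.2, an overlapping gene of the same strand, so its counts are uncertain. SRSF4 was called higher in both clones, at 0.16 and 0.21. Its clone 37 call was lost without any 1 of 5 libraries, every one of the 6 but parental replicate 2, with values of 0.14 to 0.18, and its clone 15 call without parental replicate 1 or 3 (0.18 and 0.22). In all, the clone 37 call was lost in 11 of 17 alternatives, among them DESeq2 (0.15), a replicate block (0.16), both other filters on low counts and unstranded counts (0.13). In clone 15 it was lost in 5, with unstranded counts (0.15) and no filter (0.21) among them. Against neighbours SRSF4 was called in neither, at 0.083 and 0.14. SRSF9 was called higher in clone 15 at 0.29, a call lost without parental replicate 1 or 3 (0.22 and 0.24), with unstranded counts (0.17) or against neighbours (0.16).

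SRSF6, which binds expanded CAG repeat RNA in work on huntingtin, was named here for that role after its values were seen. It stood at 196, 191 and 199.8 CPM in parental replicates 1 to 3, 178, 172 and 192 in clone 37 and 183, 163 and 176 in clone 15. Every clone 15 library lay below every parental library, while the clone 37 range overlapped that of clone 15 and reached the parental values in replicate 3. Its log2 fold change was -0.11 in clone 37 (95% interval -0.23 to 0.0062) and -0.17 in clone 15 (95% interval -0.32 to -0.017), and neither was called. Against its neighbours it was called lower in both, at -0.29 and -0.44, and so it was without parental replicate 2 (-0.16 and -0.19) and, for clone 15, in 1 fit of all 9 libraries (-0.17). With GC and length trends removed the values were -0.056 and 0.056, with no call. SRSF2, SRSF7 and SRSF8 were called in neither clone. In clone 15, however, SRSF8 at 0.19 was called higher in 6 of 17 alternatives, such as without parental replicate 2 (0.29). SRSF2 at -0.11 was called lower there with unstranded counts (-0.45) and against neighbours (-0.43). SRSF7 at -0.18 was called lower with unstranded counts (-0.24) and higher against neighbours (0.38). Between the clones, 9 of the 12 SR proteins were called, 6 higher and 3 lower in clone 37, where 57.7% of all genes were called. SRSF2 and SRSF3 were the least stable of these, at 0.12 and 0.13, and each lost its call in 11 of 17 alternatives.

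Of the 4 SR-related factors, clone 37 had 2 called higher and 1 lower, and clone 15 had 1 each way. SRRM2 (chr16:2752329-2772538), the large scaffold protein of nuclear speckles, stood at 1697, 1384 and 1632 CPM in parental replicates 1 to 3, 2083, 2072 and 1991 in clone 37 and 1394, 1323 and 1437 in clone 15. All clone 37 libraries lay above all others, and parental replicate 2 lay within the clone 15 range. Fold changes on the log2 scale were 0.38 (adjusted p = 0.00177, SE 0.091) in clone 37, -0.19 (adjusted p = 0.138, SE 0.10) in clone 15 and 0.57 (adjusted p = 1.81e-10, SE 0.051) between the clones. Its neighbours had a median of 0.31 in clone 37 and 0.46 between the clones, and both calls were lost against them (0.071 and 0.11).

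TRA2A (chr7:23504780-23532041), an activator that binds GAA-rich enhancers, stood at 107, 106 and 119.9 CPM in parental replicates 1 to 3, 89.4, 89.8 and 100.0 in clone 37 and 82.9, 77.3 and 76.8 in clone 15. The 3 groups of libraries stood apart, parental highest and clone 15 lowest. It fell by 0.49 on the log2 scale in clone 15 (SE 0.080, adjusted p = 1.53e-05) and by 0.25 in clone 37 (SE 0.069, adjusted p = 0.00567). The median of its neighbours was -0.57 and -0.48, lower than TRA2A itself. Against them it was not called in clone 15 (0.083) and was called higher in clone 37, at 0.23. Its paralogue TRA2B was called higher in clone 15 at 0.29 and not called in clone 37 at 0.093, and the clone 15 call was lost against neighbours (0.045). In clone 37 TRA2B was called higher against neighbours (0.28) and with GC and length trends removed (0.15). SRRM1, a coactivator that bridges SR proteins and snRNPs, was called higher in clone 37 at 0.24 and stood at -0.052 in clone 15. Against neighbours SRRM1 was not called in clone 37 (-0.028).

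Of the 6 kinases, clone 37 had 2 called higher and 2 lower, and clone 15 had 1 higher and 3 lower. SRPK2 (chr7:105110704-105399308) stood at 93.4, 101 and 87.5 CPM in parental replicates 1 to 3, 97.5, 97.4 and 109 in clone 37 and 63.9, 55.4 and 60.5 in clone 15. Every clone 15 library lay below every other library, while parental and clone 37 libraries overlapped. The fitted log2 difference was -0.65 (adjusted p = 5.06e-07, SE 0.084) in clone 15, 0.11 (adjusted p = 0.155, SE 0.064) in clone 37 and 0.76 (adjusted p = 1.13e-10, SE 0.066) between the clones. In clone 15 the genes around SRPK2 had a median of -0.48, and the call was lost against them, while the difference between the clones held.

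SRPK1 (chr6:35832966-35921342), the most abundant kinase of the set by CPM, stood at 313, 343 and 315 CPM in parental replicates 1 to 3, 368, 351 and 376 in clone 37 and 279, 259 and 268 in clone 15. The clone 37 libraries lay above and the clone 15 libraries below every parental library. Log2 fold changes came to 0.17 (adjusted p = 0.0176, SE 0.058) in clone 37, -0.27 (adjusted p = 0.00707, SE 0.082) in clone 15 and 0.45 (adjusted p = 3.08e-08, SE 0.052) between the clones. The clone 15 call held under all 17 alternatives. Its call in clone 37 was lost without clone 37 replicate 1 or 3 or parental replicate 1 or 3, with values of 0.17, 0.13, 0.15 and 0.13. It was lost as well against neighbours (0.083), with a replicate block (0.17) and with either other filter on low counts (0.17 and 0.15), 8 of 17 alternatives in all.

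CLK1 (chr2:200853009-200864744), a nuclear kinase whose own splicing responds to stress, stood at 58.2, 41.9 and 56.0 CPM in parental replicates 1 to 3, 34.4, 35.5 and 38.0 in clone 37 and 41.2, 40.7 and 36.7 in clone 15. All libraries of both clones lay below all parental libraries, of which replicate 2 was lowest. The log2 fold change was -0.53 (adjusted p = 0.00542, SE 0.13) in clone 37 and -0.39 (adjusted p = 0.00297, SE 0.10) in clone 15, and neighbours had medians of -0.39 and -0.48, against which neither call held. The clone 15 call of CLK1 was also lost with GC and length trends removed (-0.069). CLK4 (chr5:178602664-178630615) moved the other way in clone 37, at 43.1, 28.6 and 41.0 CPM in parental replicates 1 to 3, 51.6, 54.2 and 53.4 in clone 37 and 40.3, 35.6 and 37.1 in clone 15. All clone 37 libraries lay above all others. Its log2 fold change was 0.50 (adjusted p = 0.021, SE 0.15) in clone 37, 0.0067 (adjusted p = 0.968, SE 0.12) in clone 15 and 0.49 (adjusted p = 1.12e-06, SE 0.072) between the clones. In clone 37 the call was lost without clone 37 replicate 2 (0.48) and against neighbours, whose median was 0.40.

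CLK2 (chr1:155262868-155278491) stood at 135, 115 and 131 CPM in parental replicates 1 to 3, 85.3, 79.9 and 86.9 in clone 37 and 118, 121 and 114 in clone 15. Every clone 37 library lay below every other library, and parental and clone 15 libraries overlapped. Fold changes on the log2 scale were -0.59 (adjusted p = 2.56e-06, SE 0.072) in clone 37, -0.11 (adjusted p = 0.275, SE 0.080) in clone 15 and -0.48 (adjusted p = 4.38e-08, SE 0.058) between the clones, and the clone 37 call held under all 17 alternatives. In clone 15 CLK2 was called lower without parental replicate 2 (-0.18) and with GC and length trends removed (-0.23). CLK3 (chr15:74598500-74645414), at 63.9, 50.8 and 56.7 CPM in parental replicates 1 to 3, 63.4, 66.1 and 61.3 in clone 37 and 71.0, 74.5 and 72.9 in clone 15, had its highest values in clone 15. It was called there at 0.35 (adjusted p = 0.00173, SE 0.088) and not in clone 37 at 0.16 (adjusted p = 0.12, SE 0.083), and the clone 15 call was lost against its neighbours (0.17).

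The ratio of CLK4 to CLK1, in CPM, was 0.719 ± 0.031 across parental libraries, 1.48 ± 0.065 in clone 37 and 0.955 ± 0.072 in clone 15 (n = 3, SD). It was higher in every clone 37 library than in any other library, parental replicate 2 included, in which both genes had their lowest parental value. Per kb of exon the clone 37 levels of CLK4 and CLK1 were 6.70 and 6.96 CPM. The ratio of SRPK1 to SRPK2 was 3.45 ± 0.134 across parental libraries, 3.61 ± 0.164 across those of clone 37 and 4.49 ± 0.161 across those of clone 15 (n = 3, SD). These paralogue ratios, like those given below, were chosen after the values were seen and carry no test.

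Of the 7 genes of the hnRNP A/B and D families, clone 37 had 1 called higher and 2 lower, and clone 15 had 2 higher and 1 lower. HNRNPAB (chr5:178204507-178211163), a CArG-box and AU-rich element binding protein, stood at 340.1, 415 and 340.3 CPM in parental replicates 1 to 3, 558, 545 and 568 in clone 37 and 434, 422 and 469 in clone 15. The 3 groups did not overlap, with clone 37 highest and parental lowest. It rose by 0.61 (adjusted p = 1.06e-06, SE 0.070) on the log2 scale in clone 37 and by 0.27 (adjusted p = 0.0159, SE 0.092) in clone 15. The clone 37 call held under all 17 alternatives, and the clone 15 call was lost without parental replicate 1 (0.21) or 3 (0.21), with GC and length trends removed (0.061), against neighbours (0.13) and with unstranded counts (0.24).

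HNRNPA3 (chr2:177212563-177223958), a trafficking and telomere-binding relative of HNRNPA1, stood at 623, 715 and 638 CPM in parental replicates 1 to 3, 482, 473 and 505 in clone 37 and 449, 412 and 403 in clone 15. Here too the groups did not overlap, with parental libraries highest and clone 15 lowest. The fitted log2 difference was -0.43 (adjusted p = 2.33e-05, SE 0.065) in clone 37 and -0.65 (adjusted p = 1.54e-06, SE 0.090) in clone 15, the latter -0.33 with GC and length trends removed. Its neighbours had medians of -0.52 and -0.58, so HNRNPA3 differed little from the genes around it and neither call held against them. Of its 75-base words, 15.2% recur elsewhere in the annotation, and 12.3% of its 100-base words.

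HNRNPA1, a splicing silencer and the most abundant member of its family, stood at 1284, 1498 and 1237 CPM in parental replicates 1 to 3, 1379, 1353 and 1398 in clone 37 and 1482, 1384 and 1478 in clone 15. The groups overlapped and no comparison was called, with 95% intervals of -0.11 to 0.19 in clone 37 and -0.091 to 0.31 in clone 15. It has 74 named pseudogenes, 27.4% of its 75-base words recur elsewhere, and reads that map to several places were not counted, so its level is uncertain. HNRNPA2B1, which sorts small RNAs and reads m6A, was called lower in clone 37 at -0.24, a call lost without clone 37 replicate 1 (-0.22) or 2 (-0.22) and with GC and length trends removed (-0.16). Its neighbours had a median of -0.50, and against them HNRNPA2B1 was called higher, at 0.26. HNRNPD, or AUF1, a factor in decay of AU-rich transcripts, was called higher in clone 15 at 0.24, a call lost without parental replicate 1 or 3 (0.21 and 0.18), with unstranded counts (0.18), without a filter on low counts (0.24) and with a replicate block (0.24). Removing GC and length trends left HNRNPD called, at 0.57. HNRNPA0 and HNRNPDL were called in no comparison. With GC and length trends removed, however, HNRNPA0 was called higher in clone 37 (0.17) and clone 15 (0.26). In clone 37 HNRNPA0 also gained a call without parental replicate 2. Against neighbours there, HNRNPA0 (-0.15) and HNRNPDL (-0.19) were called lower.

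HNRNPC, which binds uridine tracts and keeps cryptic exons out, stood at 697, 827 and 700.2 CPM in parental replicates 1 to 3, 619, 597 and 634 in clone 37 and 652, 638 and 679 in clone 15. Libraries of both clones lay below all parental libraries. Log2 fold changes came to -0.26 (adjusted p = 0.00408, SE 0.070) in clone 37 and -0.18 (adjusted p = 0.112, SE 0.094) in clone 15, where it was not called. Its call in clone 37 was lost against its neighbours, whose median was -0.43. In clone 15, where that median was 0.27, HNRNPC was called lower against them, at -0.44, and stood at 0.066 with GC and length trends removed.

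The F/H family binds G tracts and includes paralogues called in opposite directions in clone 37. HNRNPF (chr10:43385617-43409166) stood at 193, 232 and 198 CPM in parental replicates 1 to 3, 275, 264 and 284 in clone 37 and 297, 293 and 327 in clone 15. All libraries of both clones lay above all parental libraries. It rose by 0.40 (adjusted p = 4.06e-05, SE 0.064) on the log2 scale in clone 37 and by 0.55 (adjusted p = 8.37e-06, SE 0.087) in clone 15, and each call held under all 17 alternatives. Neighbours had medians of 0.18 and 0.11.

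HNRNPH2 (chrX:101408295-101414133), the X-linked paralogue, stood at 96.4, 111 and 95.0 CPM in parental replicates 1 to 3, 64.6, 61.8 and 70.4 in clone 37 and 109, 108 and 101 in clone 15. A read-through gene of the same strand, RPL36A-HNRNPH2, holds 13.5% of its 75-base words, so its counts are uncertain. Every clone 37 library lay below every other library, and clone 15 overlapped parental. The log2 fold change was -0.62 (adjusted p = 6.47e-07, SE 0.067) in clone 37, 0.072 (adjusted p = 0.478, SE 0.081) in clone 15 and -0.69 (adjusted p = 2.50e-10, SE 0.063) between the clones, and the clone 37 call held under all 17 alternatives. HNRNPH1, its autosomal paralogue and the most abundant of the family by CPM, stood at 885, 757 and 851 CPM in parental replicates 1 to 3, 996, 977 and 1019.8 in clone 37 and 855, 774 and 811 in clone 15. It was called higher in clone 37 at 0.26 (adjusted p = 0.00836, SE 0.078) and not in clone 15 at -0.034 (adjusted p = 0.786, SE 0.095). In clone 37 the call was lost without clone 37 replicate 3 (0.23), with unstranded counts (0.23) and against neighbours, whose median was 0.41. The ratio of HNRNPH1 to HNRNPH2 was 8.32 ± 1.3 across parental libraries, 15.2 ± 0.681 across those of clone 37 and 7.67 ± 0.452 across those of clone 15 (n = 3, SD). HNRNPH3 was called in no comparison.

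HNRNPAB, CLK4 and HNRNPH1 lie near each other at the end of the long arm of chromosome 5, and all 3 were called higher in clone 37. The windows of 100 genes around them overlap, with medians of 0.40, 0.40 and 0.41, so these calls share a neighbourhood. Of the 3, HNRNPAB alone was still called higher against it, at 0.21.

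The K and PCBP proteins bind poly-C stretches through KH domains. HNRNPK stood at 800.3, 975 and 812 CPM in parental replicates 1 to 3, 816, 772 and 842 in clone 37 and 849, 822 and 846 in clone 15. Groups overlapped, and the 95% interval of the log2 fold change was -0.24 to 0.060 in clone 37 and -0.23 to 0.15 in clone 15. PCBP1 (chr2:70087454-70089203), also an iron chaperone, stood at 174, 196 and 166 CPM in parental replicates 1 to 3, 144, 136 and 145 in clone 37 and 197, 210.3 and 195 in clone 15, with clone 37 libraries below all others. Its log2 fold change was -0.33 (adjusted p = 0.000182, SE 0.061) in clone 37, 0.17 (adjusted p = 0.093, SE 0.082) in clone 15 and -0.50 (adjusted p = 9.69e-09, SE 0.055) between the clones. An antisense gene, PCBP1-AS1, overlaps it, and with both strands counted together the clone 37 call was lost and the clone 15 value was 0.57. The clone 37 call of PCBP1 was also lost against neighbours (0.069). In clone 15 PCBP1 was called higher in 6 of 17 alternatives, among them against neighbours (0.68) and without parental replicate 2 (0.23), while the value was -0.057 with GC and length trends removed. PCBP2 was called in neither clone, and overlapping genes of the same strand hold 18.5% of its 75-base words.

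Of the 5 hnRNP L and PTB genes, each clone had 1 called higher and 2 lower. PTBP2 (chr1:96721665-96823738), the neuronal paralogue of the polypyrimidine tract binding protein, stood at 78.3, 66.9 and 81.7 CPM in parental replicates 1 to 3, 43.1, 48.7 and 45.3 in clone 37 and 70.7, 64.4 and 61.5 in clone 15. Every clone 37 library lay below every other library. Fold changes on the log2 scale were -0.73 (adjusted p = 2.19e-06, SE 0.086) in clone 37, -0.21 (adjusted p = 0.0523, SE 0.088) in clone 15 and -0.52 (adjusted p = 5.37e-07, SE 0.072) between the clones. The clone 37 call held under all 17 alternatives, and its neighbours had a median of -0.22. In clone 15 it was called lower without parental replicate 2 (-0.30), with unstranded counts (-0.26) and in 1 fit of all 9 libraries (-0.20), while the value was 0.17 with GC and length trends removed and 0.18 against neighbours, with no call.

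PTBP1, which represses inclusion of a PTBP2 exon and so holds PTBP2 down outside neurons, stood at 489, 531 and 493 CPM in parental replicates 1 to 3, 614, 585 and 595 in clone 37 and 493, 548 and 514 in clone 15. Clone 37 libraries lay above all others, and clone 15 overlapped parental. The fitted log2 difference was 0.25 (adjusted p = 0.00246, SE 0.061) in clone 37 and 0.036 (adjusted p = 0.754, SE 0.087) in clone 15. Its call in clone 37 was lost without clone 37 replicate 3 (0.23), with unstranded counts (0.21) and against neighbours, whose median was 0.31. The ratio of PTBP1 to PTBP2 was 6.74 ± 1.04 across parental libraries, 13.1 ± 1.12 across those of clone 37 and 7.94 ± 0.846 across those of clone 15 (n = 3, SD), highest in all clone 37 libraries. PTBP3, the third paralogue, stood at 160.1, 184 and 159 CPM in parental replicates 1 to 3, 170.4, 167 and 179 in clone 37 and 138, 135 and 124 in clone 15, lowest in clone 15. It was called there at -0.34 (adjusted p = 0.00102, SE 0.082) and not in clone 37 at 0.037 (adjusted p = 0.62, SE 0.060). With GC and length trends removed the clone 15 value of PTBP3 was 0.0090 and not called.

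HNRNPLL (chr2:38561978-38603586), known for splicing of CD45 in lymphocytes, stood at 52.1, 56.3 and 54.0 CPM in parental replicates 1 to 3, 37.8, 36.9 and 38.2 in clone 37 and 41.0, 36.8 and 36.3 in clone 15. Libraries of both clones lay below all parental libraries and overlapped each other. Log2 fold changes came to -0.52 (adjusted p = 4.18e-06, SE 0.067) in clone 37, -0.51 (adjusted p = 2.77e-05, SE 0.088) in clone 15 and -0.016 (adjusted p = 0.873, SE 0.075) between the clones. Neighbours had medians of -0.39 and -0.56, and neither call held against them. HNRNPL, which binds CA repeats, was called higher in clone 15 at 0.28, a call lost without parental replicate 3 (0.23) or with unstranded counts (0.22), and stood at 0.092 in clone 37. An overlapping gene of the same strand, AC008982.1, holds 16.1% of the 75-base words of HNRNPL, so its counts are uncertain.

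HNRNPM (chr19:8444767-8489114), which binds GU-rich sites, stood at 282, 344 and 326 CPM in parental replicates 1 to 3, 379, 366 and 390.5 in clone 37 and 385, 409 and 385 in clone 15. Libraries of both clones lay above all parental libraries, of which replicate 1 was lowest. The log2 fold change was 0.26 (adjusted p = 0.00362, SE 0.067) in clone 37 and 0.31 (adjusted p = 0.00514, SE 0.088) in clone 15. The first call was lost without clone 37 replicate 3 (0.21), and the second without parental replicate 1 (0.21). Neither held against neighbours (0.094 and 0.15), and the clone 15 call was lost with GC and length trends removed (0.14) and the clone 37 call with unstranded counts (0.22). SYNCRIP, or hnRNP Q, was called higher in clone 37 at 0.36 (adjusted p = 7.12e-05, SE 0.059), a call that held under all 17 alternatives, and stood at -0.033 (adjusted p = 0.76, SE 0.083) in clone 15. Its paralogue HNRNPR was at 374, 409 and 387 CPM in parental replicates 1 to 3, 405, 406 and 425 in clone 37 and 368, 365 and 364 in clone 15, and was called in neither clone, at 0.081 and -0.10.

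HNRNPU, the scaffold attachment factor, had the most counts of the U family, at 1819.7, 1711 and 1889.7 CPM in parental replicates 1 to 3, 1814, 1870.0 and 1899.7 in clone 37 and 1726, 1568 and 1721 in clone 15, and was called in neither clone. HNRNPUL1 (chr19:41262496-41307598), a relative that acts at DNA breaks, stood at 486, 553 and 469.9 CPM in parental replicates 1 to 3, 321, 309 and 314 in clone 37 and 479, 499.8 and 537 in clone 15. Every clone 37 library lay below every other library, and clone 15 overlapped parental. Its log2 fold change was -0.67 (adjusted p = 1.04e-07, SE 0.063) in clone 37, 0.0040 (adjusted p = 0.974, SE 0.090) in clone 15 and -0.68 (adjusted p = 1.06e-11, SE 0.053) between the clones. In clone 37 the call held under all 17 alternatives, and its neighbours had a median of -0.24. HNRNPUL2 was called lower in clone 37 at -0.24, and the call was lost without clone 37 replicate 1 (-0.20). A read-through gene, HNRNPUL2-BSCL2, holds 44.9% of its 75-base words, so its counts are uncertain.

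**Figure D4:**
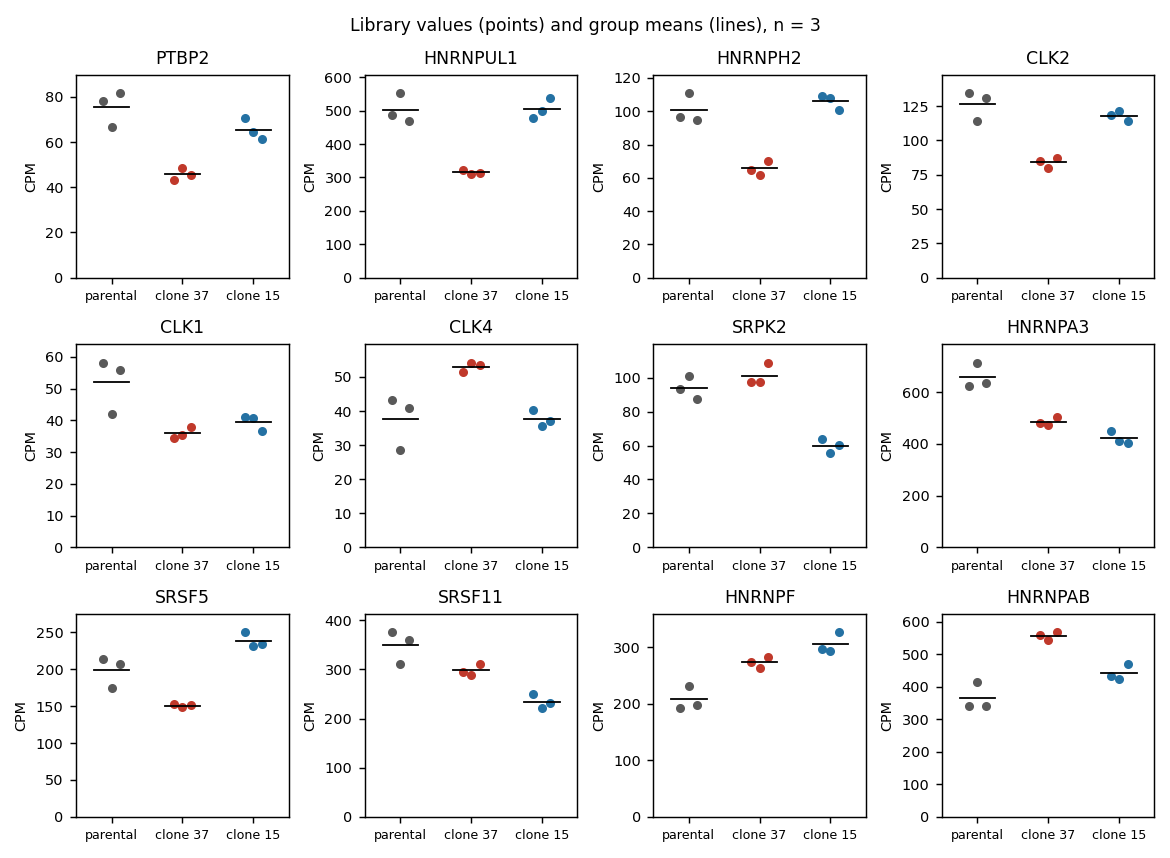
CPM in each library (points) and group means (lines) for 12 of the genes, with axes that start at 0 and groups on the x axis in the order parental, clone 37, clone 15 (n = 3 each). PTBP2, HNRNPUL1, HNRNPH2 and CLK2 have their 3 lowest values in clone 37 and SRPK2 in clone 15, SRSF5 differs from parental in opposite directions in the clones, and HNRNPF lies above parental in both.

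Position along the chromosome moved with the fold changes. In clone 37, 38 of the 48 genes had the same sign as the median of their 100 neighbours, with a Spearman's rho of 0.66 across the 48 genes (0.49 across all genes tested). In clone 15 it was 30 genes, with a rho of 0.42 (0.42 across all genes), and between the clones 32 genes, with a rho of 0.49 (0.42). These describe genes that share libraries and, in places, windows, and carry no test. Tested against their neighbours, the calls were 9 higher and 13 lower for clone 37, 8 and 11 for clone 15, and 17 and 13 between the clones. That was 45.8%, 39.6% and 62.5% of the 48, where 43.1%, 42.3% and 50.8% of all genes were called in that setting. What moved neighbouring genes together was not tested. GC content moved with the fold change in clone 15, with a rho of 0.40 across the 48 genes and 0.25 across all genes, and less so in clone 37 at 0.10 and 0.054.

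**Figure D5:**
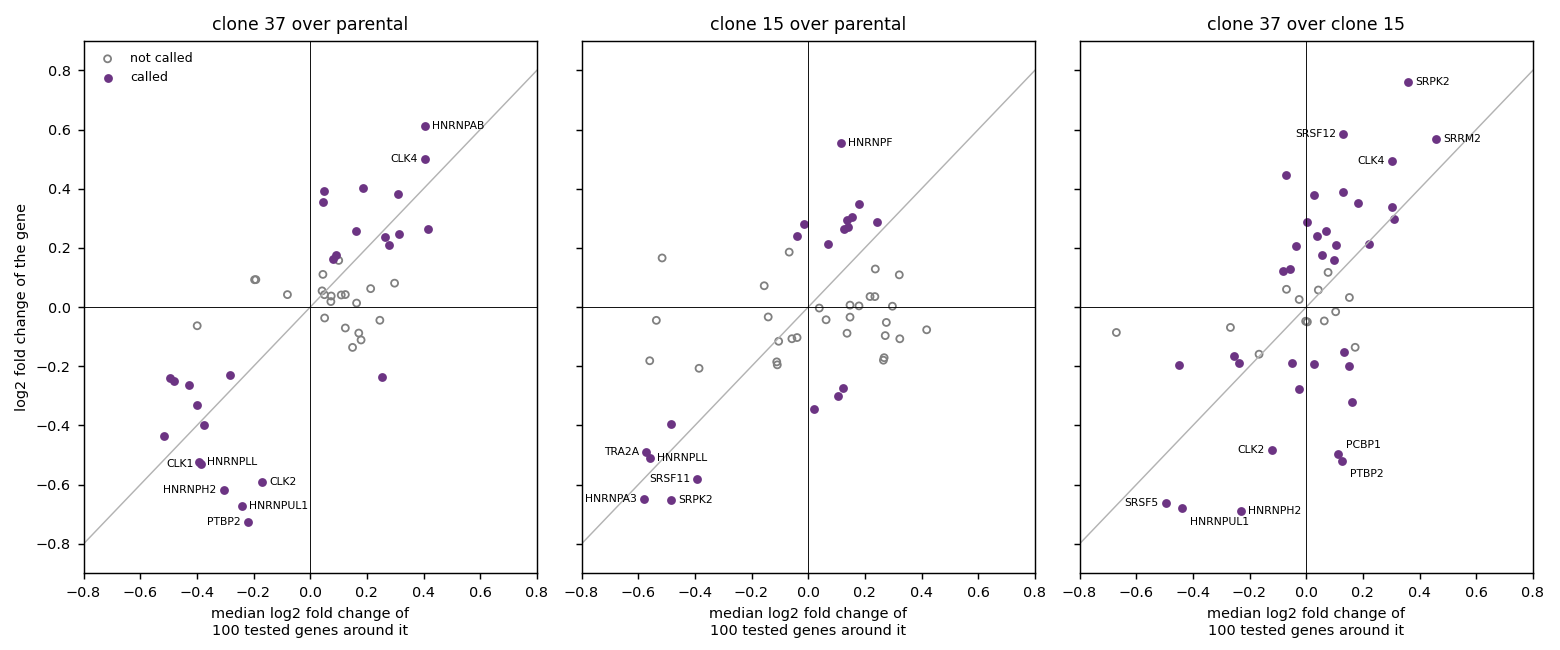
Log2 fold change of each of the 48 genes (y axis) against the median over its 100 nearest tested neighbours along the chromosome (x axis), for the 3 comparisons, with filled points called and open points not called. The line marks equality; PTBP2, HNRNPUL1, HNRNPH2 and CLK2 lie below it in clone 37, while HNRNPA3, HNRNPLL and TRA2A lie near it in clone 15.

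Of the calls against parental, 8 held under all 17 alternatives in clone 37. These were PTBP2, HNRNPUL1, HNRNPH2 and CLK2, which fell, and HNRNPAB, HNRNPF, SRSF12 and SYNCRIP, which rose. In clone 15 only HNRNPF, which rose, and SRPK1, which fell, did so. Between the clones 20 calls held under their 17 alternatives. Some calls that held changed in size by more than 1.5 times. In clone 15 with GC and length trends removed, HNRNPLL stood at -0.26, SRSF4 at 0.45, SRSF5 at 0.45 and TRA2B at 0.49. In clone 37 CLK4 (0.31) and HNRNPH1 (0.17) were smaller without parental replicate 2, as was SRSF5 in clone 15 (0.17). Against neighbours in clone 37, HNRNPF was 0.22, HNRNPH2 -0.31, HNRNPUL1 -0.43 and HNRNPUL2 -0.49. The differences between the clones against neighbours were -0.17 for SRSF5, -0.24 for HNRNPUL1, 0.19 for CLK4 and 0.40 for SRPK2, and with GC and length trends removed 0.37 for SRSF12 and 0.23 for CLK4. Genes not called could also gain a call under an alternative. In clone 15 with GC and length trends removed HNRNPH1 (0.31), SYNCRIP (0.32), HNRNPR (0.28) and HNRNPA1 (0.24) were called higher and SRRM2 lower (-0.28). In clone 37 CLK3 (0.24) and PTBP3 (0.15) were called higher with that setting, as was SRPK2 (0.14) without parental replicate 2. HNRNPH2 was called higher against its neighbours in clone 15 (0.23).

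The rest of the splicing pathway was read from 6 lists of other genes, whose counts stand beside 54.0% of all genes called in clone 37 and 51.4% in clone 15. Of 23 U1, U2 and early splice site factors, clone 37 had 8 higher and 6 lower, and clone 15 had 6 and 6. LUC7L2, a U1 snRNP factor, had the largest difference at -1.18 (adjusted p = 1.58e-09, SE 0.079) in clone 37, where its neighbours had a median of -0.92, and U2AF1 followed at 0.72 (adjusted p = 0.0251, SE 0.25). In clone 15 these were SF3B6 at -0.81 (adjusted p = 3.15e-07, SE 0.10) and SF3B5 at 0.64 (adjusted p = 1.52e-06, SE 0.089). Of 7 Sm core genes, clone 37 had 3 higher and 2 lower, with SNRPD1 at -0.56 (adjusted p = 1.43e-06, SE 0.065) and SNRPF at 0.53 (adjusted p = 1.59e-05, SE 0.078). The neighbours of SNRPD1 had a median of -0.52, and in clone 15 it stood at -0.025 without a call. In clone 15, 3 of the 7 were called, each higher, with SNRPF at 0.72 (adjusted p = 4.32e-07, SE 0.093) and SNRPB at 0.68 (adjusted p = 2.75e-07, SE 0.084).

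Of 22 tri-snRNP and catalytic factors, clone 37 had 13 higher and 3 lower, with PLRG1 at 0.61 (adjusted p = 1.57e-07, SE 0.059) and PRPF31 at -0.48 (adjusted p = 5.56e-06, SE 0.063). PRPF31 was called in the other direction in clone 15, at 0.36 (adjusted p = 0.000516), and PLRG1, whose clone 37 neighbours had a median of 0.43, stood at 0.021 there without a call. In clone 15, 8 were higher and 3 lower, with PRPF19 at 0.59 (adjusted p = 1.12e-06, SE 0.080) and DDX23 at 0.57 (adjusted p = 1.56e-06, SE 0.079). The list's median log2 fold change was 0.21 in clone 37 and 0.16 in clone 15, against 0.02 over all genes in each. Of 38 tested among 40 other splicing regulators, clone 37 had 11 higher and 11 lower, led by NOVA1 at -0.89 (adjusted p = 1.33e-06, SE 0.10) and SAFB2 at 0.73 (adjusted p = 3.54e-07, SE 0.075). In clone 15, 9 were higher and 11 lower, led by TIA1 at -1.05 (adjusted p = 9.42e-11, SE 0.081) and SAFB2 at 0.63 (adjusted p = 1.01e-06, SE 0.086). NOVA1 was not called in clone 15, at 0.17. Over the genes named from these lists, neighbour medians ran from -0.92 for LUC7L2 to 0.43 for PLRG1.

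Among 18 tested of 19 modifiers and importins of SR proteins and hnRNPs, clone 37 had 7 higher and 5 lower, and clone 15 had 7 and 4. PPP1CB, a catalytic subunit of protein phosphatase 1, which dephosphorylates SR proteins, stood at -0.76 (adjusted p = 1.65e-07, SE 0.073) in clone 37 and -1.10 (adjusted p = 1.80e-10, SE 0.088) in clone 15. The next were DYRK1B at -0.72 (adjusted p = 7.31e-06, SE 0.10) in clone 37 and PPIG at -0.84 (adjusted p = 2.70e-08, SE 0.090) in clone 15. DYRK1B was called higher in clone 15, at 0.37 (adjusted p = 0.00271), and the neighbours of PPIG had a median of -0.62. Of 15 nonsense-mediated decay factors, 6 were higher and 3 lower in each clone, a share near that of all genes. SMG8 stood at 0.46 (adjusted p = 9.43e-05, SE 0.079) and SMG1 at 0.33 (adjusted p = 0.00028, SE 0.064) in clone 37. SMG1 was called lower in clone 15, at -0.39 (adjusted p = 0.000365), where SMG8 stood at 0.51 (adjusted p = 7.89e-05, SE 0.10) and SMG6 at 0.44 (adjusted p = 5.12e-05, SE 0.080).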

How the data were processed

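Libraries were made from 500 ng of total RNA after ribosomal RNA depletion with a directional kit, per the labels' protocols. The authors deposited gene counts, unnormalized, made with STAR 2.7.10a on hg38, per the submitters' processing notes, which also name FastQC 0.11.9; the annotation release is not given in the sources used here. Column 4 of each file, which held 92.6% to 94.0% of stranded counts, was used. The 4 summary entries, 40.3% to 49.1% of read pairs, named no gene and were left out. STAR's gene counts leave out reads that map to several places, so genes with close copies are undercounted, less so with longer reads.

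Counts were filtered with filterByExpr, scaled by TMM and tested with edgeR 4.0.16 (robust glmQLFit, glmQLFTest) in R 4.3.3, each comparison on its 6 libraries, with Benjamini-Hochberg adjustment over all genes. The threshold for a call was an adjusted p of 0.05. SE is the log2 fold change over the square root of F. CPM was computed from TMM-scaled totals, and the biological coefficient of variation was 6.22%, 8.58% and 6.30%. Gene positions, exon lengths and GC content came from GENCODE 29 on GRCh38, and windows upstream of start sites from RefSeq. Tested on simulated counts with 200 changed genes, the clone 37 comparison (16501 genes) recovered 86.9% of 2-fold and 65.7% of 1.5-fold changes with 7.36% false calls. Clone 15 against parental (17703 genes) gave 87%, 65% and 8.43%, and clone 37 against clone 15 (17712 genes) 85%, 76% and 4.17%. No replicate pair agreed within sampling noise (lowest chi-square per degree of freedom 1.77), so all 9 libraries were kept.

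Genes and lists were chosen with earlier results of these data known. Library values are given for the 10 called genes of the set with the largest change in each comparison and the most abundant gene of each of 10 families; 2 called genes with a mean of at least 5 CPM are named per other list and clone. MATR3 matched several gene IDs and was left out of its list. As alternatives, DESeq2 1.42.0 (Wald test) and RLE scaling replaced edgeR's test and TMM, and the filter was dropped or set to 1 CPM in 3 libraries. Others were unstranded counts, 1 fit of all 9 libraries, thinning to the smallest library, a replicate block, only protein-coding genes, removal of GC and length trends, a test against the 100 tested genes around each gene, and leaving out each replicate. The reporter transcripts were not analysed here. Python 3.11.15, numpy 2.4.6, pandas 2.3.3 and matplotlib 3.10.9 made the tables and figures.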

Additional observations from a re-analysis of the deposited data

Results flagged for a closer look

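SRSF5 and SRPK1 were called in opposite directions in the 2 clones. SRSF5 had a log2 fold change of -0.40 in clone 37 and 0.26 in clone 15 against parental cells, and clone 37 over clone 15, tested directly, was -0.66. SRPK1 had 0.17 in clone 37 and -0.27 in clone 15, and clone 37 over clone 15 was 0.45 when tested directly. Against their chromosome neighbours SRSF5 was called in neither clone (-0.025 and 0.14), and SRPK1 was not called in clone 37 (0.083), a call lost in 8 of 17 alternatives. In all, 35 of the 48 genes differed between the clones at an adjusted p under 0.05 (edgeR's quasi-likelihood test), where 57.7% of all genes tested did.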

How the results depend on the processing

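Of the log2 fold changes of the 48 genes under 17 alternatives each, 738 of clone 37, 731 of clone 15 and 747 between the clones either kept their direction and their side of the threshold or turned in sign with no call in either fit. Another 43, 33 and 40 lost the call and 21, 41 and 16 gained one. The sign turned with a call in at least 1 of the fits for 14, 11 and 13 values, all in a test against the chromosome neighbours or with GC and length trends removed. Leaving out 1 library moved the number called higher in clone 37 to between 7 and 17, and in clone 15 to between 5 and 14, with 9 to 14 called lower there. The share of all genes called moved as well, between 44.6% and 59.4% in clone 37 and between 42.7% and 48.0% in clone 15. With unstranded counts 5 genes were called higher in clone 15, and the 48 genes summed to 17890.0 CPM in clone 37 and 16826 in clone 15. With GC and length trends removed, 16 genes were called higher in clone 15 and 13 between the clones. Without a filter, the median log2 fold change of all genes moved to 0.14 in clone 15 and -0.12 between the clones.

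Replicate numbers did not pair the libraries: same-numbered libraries of different groups had correlations of -0.16 to 0.023 in their deviations from the group mean, and not every library correlated best with its own number. A replicate block gave 11 genes higher and 14 lower in clone 37, 9 and 9 in clone 15, and 20 and 15 between the clones.

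Against their neighbours, the sign so turned in clone 37 for SRSF2 (-0.15), SRSF7 (0.34), SRSF10 (-0.069), SRSF11 (0.054), TRA2A (0.23), SRRM1 (-0.028), HNRNPA0 (-0.15), HNRNPA2B1 (0.26), HNRNPA3 (0.080), HNRNPC (0.16), HNRNPH1 (-0.15), PCBP1 (0.069), PTBP1 (-0.064) and HNRNPR (-0.22). In clone 15 it turned for SRSF7 (0.38), SRSF10 (-0.29), TRA2A (0.083), CLK1 (0.090), HNRNPA2B1 (0.49) and HNRNPLL (0.048). Between the clones it turned for TRA2B (0.25), HNRNPA1 (0.20), HNRNPDL (-0.12), HNRNPC (0.58), HNRNPH1 (-0.012), PCBP2 (0.088), HNRNPL (0.049) and PTBP1 (-0.0083). These values are differences from a local median, so a sign that turned says that the gene moved less than its neighbours, in the same direction.

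With GC and length trends removed, the sign so turned in clone 15 for HNRNPA2B1 (0.21), HNRNPH1 (0.31), PTBP3 (0.0090), HNRNPR (0.28) and SYNCRIP (0.32), and between the clones for SRSF3 (-0.049), SRSF6 (-0.11), HNRNPA3 (-0.022), HNRNPR (-0.091) and HNRNPU (-0.0029). The cause was not tested. Depth did not limit detection, since the lowest count of any of the 48 genes was 242.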
